A study of Mus musculus with 4 samples.

Results

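The genes described here encode the proximal part of the T cell receptor (TCR) signalling pathway, from the receptor complex at the membrane to the first calcium, Ras and NF-kappaB steps. A list of 43 gene symbols defined the group, and a symbol was kept if it stood in both deposited tables and averaged at least 1 FPKM (a fragment count divided by transcript length in kilobases and by the size of the library) over the 4 libraries. All 43 met that rule, out of 10587 genes that met the same filter and 22120 symbols usable in both tables. The lowest was Pag1, at a mean of 2.85 FPKM, so the filter removed none of them. The RNA sequenced was that of regulatory T cells induced in culture (induced Treg cells) from C57BL/6 mice, 2 libraries labelled MSC KO and 2 labelled WT. The Msc gene encodes musculin (MSC), a transcription factor of the basic helix-loop-helix class. Both groups were sorted naive T cells grown with TGF-beta at 2 ng/ml until day 3 on plates coated with anti-CD3 and anti-CD28 at 1 µg/ml, antibodies that trigger the pathway described here. The labels do not give the age or sex of the mice, the targeted part of Msc, or whether replicates came from separate animals, so the p-values cover no more than the spread among these samples, which may be technical.

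As background, the TCR has no enzyme of its own. Its CD3 and zeta chains are phosphorylated by the kinase Lck, which is carried by the coreceptor CD4, and then recruit the kinase Zap70. Zap70 phosphorylates the adaptors Lat and SLP-76, on which Tec family kinases activate phospholipase C gamma. The 2 products of that lipase open calcium stores through the IP3 receptor, leading to NFAT, and activate protein kinase C theta and RasGRP1 through diacylglycerol, leading to NF-kappaB and Ras. The strength of this signal is known to bear on whether Foxp3 is induced in naive T cells.

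The values were deposited as 2 tables, MSC KO 1 beside WT 1 and MSC KO 2 beside WT 2, and comparisons were made within a table. The sequencing depth was judged by how finely low FPKM values are spaced. It was roughly 28.2 and 34.8 M fragments (M for mega) under the MSC KO label and 27.4 and 37.2 M under the WT label. The fit to whole fragments was loose, scoring 0.271 to 0.329 where 1 would be exact, so these depths are rough. Msc itself was under 1 FPKM in all 4 libraries, and its values were the higher ones under the MSC KO label. They were 0.331 and 0.939 FPKM under the MSC KO label, against 0.0243 and 0.0178 FPKM under the WT label. At the rough depths above, that is about 16.3 and 56.9 fragments, against 1.16 and 1.15. Because the targeted part of Msc is not given, the labels could not be checked by these values. Every direction below is therefore that of the libraries as labelled. Foxp3, the lineage factor of Treg cells, was at 2.97 and 7.05 FPKM under the MSC KO label, against 62.8 and 66 FPKM under the WT label. T cell identity was plain in all 4 libraries, where Cd3e lay between 133 and 155 FPKM and Cd4 between 166 and 209 FPKM. Of the CD8 T cell markers, Cd8a was at 0.571 and 0.658 FPKM under the MSC KO label, against 1.58 and 1.9 FPKM under the WT label, and Cd8b1 at 8.56 and 19.1 FPKM under the MSC KO label, against 9.75 FPKM in each library labelled WT. The 4 B cell markers summed to 5.87 and 5.04 FPKM under the MSC KO label, against 7.25 and 6.95 FPKM under the WT label, most of it Cd79b, and the 5 myeloid markers found stayed under 1 FPKM in sum. Of the mast cell markers, Cpa3 and Fcer1a were listed at 0 in all libraries and Kit at 2.47 and 14.9 FPKM under the MSC KO label, against 10.2 and 9.81 FPKM under the WT label. The NK, gamma delta T cell and erythroid markers found summed to under 0.1 FPKM per list in each library. The part of these markers in the differences below was not tested. In bulk libraries such as these, fewer cells that carry a transcript and less of it in each cell cannot be told apart.

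Of the 43 proximal signalling genes, 3 (6.98%) differed from WT by at least 1.5-fold in the same direction in both tables, against 5.71% of all tested genes. The 1.5-fold rule was applied throughout to log2(FPKM + 1), whereas ratios given for single genes are of plain FPKM. Txk lay below WT, and Tec and Itpr1 lay above it. Over all genes, 1 of 10587 passed an adjusted p of 0.05 in a limma fit blocked by table (0.00945%), and 0 of the 43 did. At an unadjusted p under 0.05 there were 10 of the 43 above WT, where 9.21% of all tested genes met that rule. Another 7 lay below, where 11.2% did. The 43 were chosen with earlier results of these data known, so such counts describe them and test nothing. By size, 2 of the 43 were at least 1.5-fold above WT in both tables, against 3.26% of all tested genes, and 1 was as far below, against 2.46%. These shares, 4.65% and 2.33% of the group, are near the background. The median difference of the 43 was 0.04 on the log2(FPKM + 1) scale, and -0.02 over all tested genes. The median of the 43 was 0.15 within the first table and -0.14 within the second. Over all tested genes it was -0.002 and -0.04.

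Within 1.5-fold in both tables stood 36 of the 43 genes. There were 18 (41.9%) that lay above WT in each table, where 31.2% of all tested genes did. Another 18 (41.9%) lay below it in each, where 37.5% did. The 7 left had opposite signs in the tables, a smaller part than was left over all tested genes. Both MSC KO-labelled libraries lay above both WT-labelled ones in 16 of the 43 genes (37.2%), against 26.6% of all tested genes. They lay below both in 17 (39.5%), against 32.5%. A lack of overlap, given for single genes below, is thus common over all tested genes. The MSC KO-labelled replicates were farther apart than the WT-labelled ones. The median absolute difference between replicates over the 43 genes was 0.158 for MSC KO and 0.054 for WT on the log2(FPKM + 1) scale, and the largest was 1.66 (Malt1) and 0.28 (Itpr1). In 33 of the 43 genes the signed difference, MSC KO minus WT, had a higher value in the first table than in the second. The share of all tested genes was not taken for this count, nor for the 36 within 1.5-fold.

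**Figure D1:**
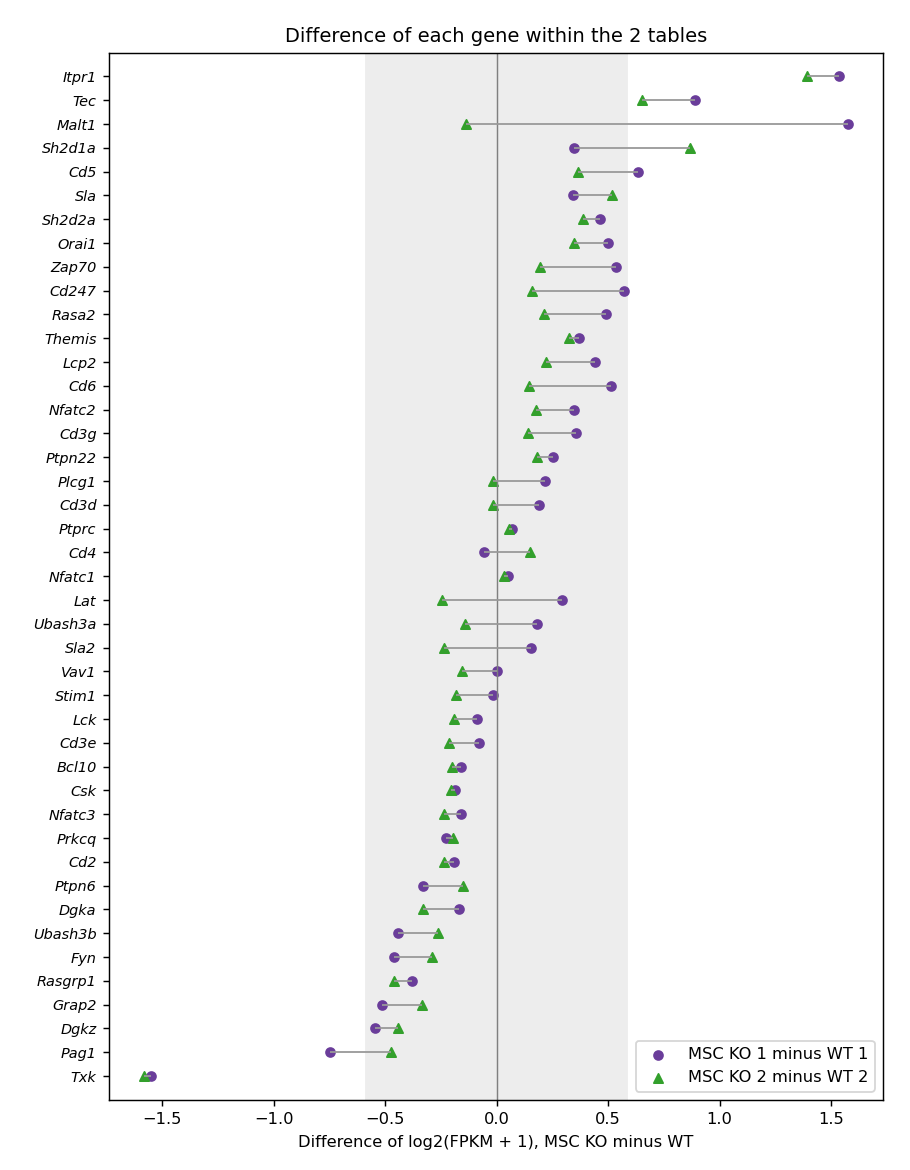
Difference of log2(FPKM + 1), MSC KO minus WT, of the 43 proximal signalling genes within the first table (circles) and the second (triangles), ordered by the mean of both, with the range within 1.5-fold shaded. Itpr1 and Tec lie right of the shading in both tables, Txk lies left of it in both, and Malt1 is the gene whose 2 values are farthest apart.

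Levels spread widely across the group. Cd2 was highest at a mean of 397 FPKM, above 97.7% of tested genes, followed by Lat (321 FPKM), Cd3g (286 FPKM) and Cd3d (272 FPKM). A mean of at least 100 FPKM was reached by 13 of the 43 genes, among them all 4 chains of the receptor complex, Cd4 and Lck. The 5 genes under 10 FPKM were Rasa2, Itpr1, Txk, Tec and Pag1, and the 3 genes past 1.5-fold in both tables were all among these.

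**Figure D2:**
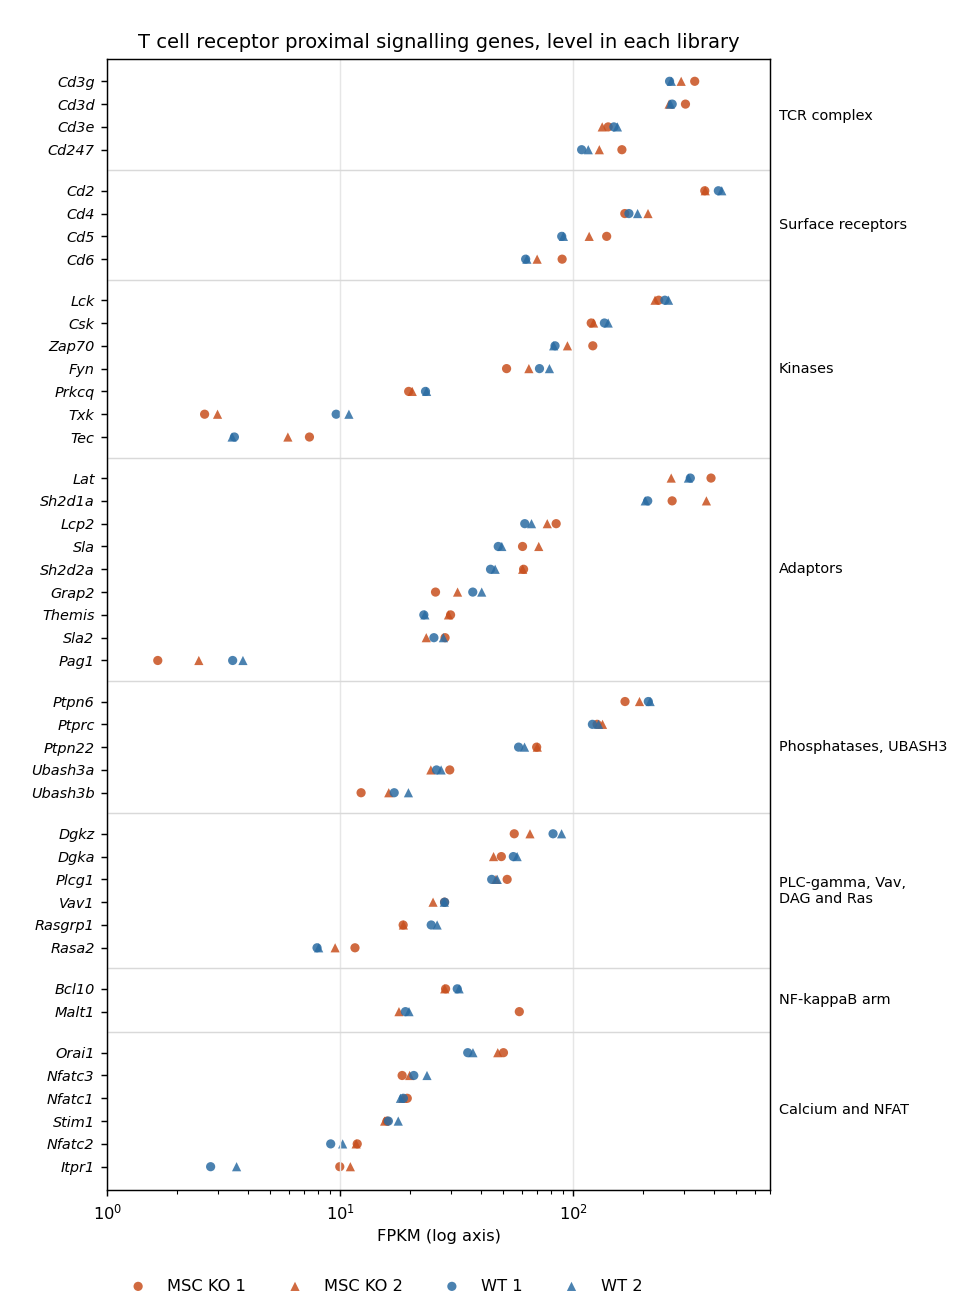
FPKM of each proximal signalling gene in each library on a log axis, in groups by role, with MSC KO-labelled libraries in orange, WT-labelled ones in blue, replicate 1 as circles and replicate 2 as triangles. The 4 points of most genes lie close together on this axis, although the groups do not overlap in 16 genes above WT and 17 below it. The 2 pairs of Txk, Tec and Itpr1 are the widest apart, and Malt1 has 1 point far to the right.

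The largest differences among the kinases were in 2 neighbouring genes of the Tec family, Txk and Tec, in opposite directions. Txk encodes the Tec family kinase also called Rlk, which can phosphorylate phospholipase C gamma in T cells and is known to decline on T cell activation. It had 2.62 and 2.97 FPKM under the MSC KO label, against 9.6 and 10.9 FPKM under the WT label. Both MSC KO-labelled values lay far below both WT-labelled ones. The groups did not overlap, though 32.5% of all tested genes also had both MSC KO-labelled values below both WT-labelled ones. The ratio to WT was 0.273 in each table, and the difference was -1.57 ± 0.10 on the log2(FPKM + 1) scale (SE, 2 libraries per group; limma adjusted p = 0.1). The authors' deposited table gave it a q-value of 0.274 in the first comparison and 0.124 in the second.

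Tec encodes the founding member of that kinase family, which is low in naive T cells. It had 7.37 and 5.96 FPKM under the MSC KO label, against 3.51 and 3.43 FPKM under the WT label. The MSC KO-labelled values were the higher in both tables, at 2.1 and 1.74 times WT, with no overlap. The difference was 0.77 ± 0.12 on the log2(FPKM + 1) scale (SE; limma adjusted p = 0.147). The estimated depths are rough, and the longest annotated transcript of Tec is 2659 bp. On that basis Tec rested on about 553 and 551 fragments under the MSC KO label and 255 and 340 under the WT label.

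In the tables' own mm9 coordinates Txk lies on chromosome 5 at 73087217 to 73144012 and Tec at 73146962 to 73259687, 2949 bp apart with no other listed gene between them. Both are on the minus strand. To set the starts of these neighbours side by side, the 250 bases before 3 transcript starts of the RefSeq promoter table are printed (RefSeq, GRCm38.p6, 5′ to 3′ on the minus strand), with CG dinucleotides in capitals. They lie at chr5:72752778-72753027 (Txk, first start), chr5:72736603-72736852 (Txk, second start) and chr5:72868449-72868698 (Tec). The widest RefSeq gene models begin farther upstream, so that 215 bases of the window at the first Txk start, all 250 at the second and 206 at the Tec start lie inside the gene.
Txk first start: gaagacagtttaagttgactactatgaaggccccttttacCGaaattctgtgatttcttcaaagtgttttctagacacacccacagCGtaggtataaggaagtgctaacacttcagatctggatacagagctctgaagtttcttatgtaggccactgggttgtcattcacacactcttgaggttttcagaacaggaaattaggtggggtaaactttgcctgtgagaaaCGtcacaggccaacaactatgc
Txk second start: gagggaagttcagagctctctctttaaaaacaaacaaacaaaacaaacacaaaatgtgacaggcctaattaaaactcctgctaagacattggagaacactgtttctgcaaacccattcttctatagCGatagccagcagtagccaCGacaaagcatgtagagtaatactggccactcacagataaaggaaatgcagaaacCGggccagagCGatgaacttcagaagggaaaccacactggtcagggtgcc
Tec start: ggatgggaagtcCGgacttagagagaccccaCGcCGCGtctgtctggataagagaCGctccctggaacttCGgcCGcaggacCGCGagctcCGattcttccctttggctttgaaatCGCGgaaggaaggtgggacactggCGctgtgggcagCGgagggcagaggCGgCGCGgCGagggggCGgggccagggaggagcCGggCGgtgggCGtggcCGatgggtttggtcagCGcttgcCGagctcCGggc

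The Tec window held 26 CG dinucleotides at a GC content of 68.4%, and 9.59% of all 32851 RefSeq promoter windows of that length held as many or more. The Txk windows held 3 and 4 CG dinucleotides at a GC content of 42.8% and 44.4%, where the median of all windows was 6 CG and 52.4%. Musculin belongs to a family that binds E boxes, CANNTG, a motif that reads the same on both strands. No E box was found in these 3 windows, which says only that those letters are not there. Over all windows 66.2% held at least 1 E box, and so did 33 of the 48 windows of the 33 proximal signalling genes matched by symbol (68.8%). The more specific form CAGCTG was in 13% of all windows and in 3 of those 48. These are matches of letters, not binding sites.

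The other kinases differed less. Lck, which starts the phosphorylation of the receptor chains and is the most abundant kinase of the group, had 232 and 224 FPKM under the MSC KO label, against 247 and 256 FPKM under the WT label. Both MSC KO-labelled values were slightly the lower, by -0.14 ± 0.09 on the log2(FPKM + 1) scale (SE; limma adjusted p = 0.445). Fyn, the second Src family kinase of T cells, had 51.7 and 64.5 FPKM under the MSC KO label, against 71.6 and 79 FPKM under the WT label, again with no overlap. Zap70, the kinase that binds the phosphorylated receptor chains, went the other way, at 121 and 94.4 FPKM under the MSC KO label, against 83.5 and 82.4 FPKM under the WT label, with the wider gap in the first table. Csk, which restrains Lck by phosphorylating its tail, had 119 and 122 FPKM under the MSC KO label, against 136 and 141 FPKM under the WT label. Prkcq, protein kinase C theta, had 19.7 and 20.4 FPKM under the MSC KO label, against 23.2 and 23.5 FPKM under the WT label. In both cases the MSC KO-labelled pair sat together just under the WT-labelled pair, within 1.5-fold.

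The receptor complex stayed within 1.5-fold of WT, though Cd247 came near that limit in the first table, at 1.49 times WT. Cd3g, the CD3 gamma chain and the highest of the 4, had 332 and 290 FPKM under the MSC KO label, against 259 and 263 FPKM under the WT label. Its difference was 0.25 ± 0.10 on the log2(FPKM + 1) scale (SE; limma adjusted p = 0.3). Without MSC KO 1 it was 0.15, and without MSC KO 2 it was 0.34. Cd247, the zeta chain that carries most of the phosphorylation motifs, had 162 and 129 FPKM under the MSC KO label, against 109 and 116 FPKM under the WT label, so that its difference was 0.57 within the first table and 0.16 within the second. The MSC KO 1 value stood apart and the MSC KO 2 value was near WT. Cd3d, the delta chain, had 303 and 258 FPKM under the MSC KO label, against 266 and 261 FPKM under the WT label, and Cd3e, the epsilon chain, 141 and 133 FPKM under the MSC KO label, against 149 and 155 FPKM under the WT label. Cd3d overlapped WT and Cd3e lay slightly below it, although Cd3g, Cd3d and Cd3e sit side by side on chromosome 9. None of the 4 was 1.5-fold apart in either table.

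Of the surface receptors, Cd5 stood out most. Cd5, a receptor that dampens TCR signals and whose level follows their strength in thymocytes, had 139 and 117 FPKM under the MSC KO label, against 89.2 and 90.7 FPKM under the WT label. The groups did not overlap, and the difference was 0.64 in the first table, past 1.5-fold, and 0.36 in the second. Its relative and neighbour on chromosome 19, Cd6, which binds ALCAM, had 89.5 and 70 FPKM under the MSC KO label, against 62.4 and 63.2 FPKM under the WT label. Cd6 followed Cd5 in direction, with most of its gap in the first table. Cd2, the adhesion receptor for CD48 and the highest gene of the group, had 367 and 368 FPKM under the MSC KO label, against 419 and 434 FPKM under the WT label, a difference of -0.21 ± 0.08 (log2(FPKM + 1) scale, SE; limma adjusted p = 0.278). Cd4, the coreceptor that brings Lck to the TCR, had 166 and 209 FPKM under the MSC KO label, against 173 and 189 FPKM under the WT label, so that the groups overlapped.

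**Figure D3:**
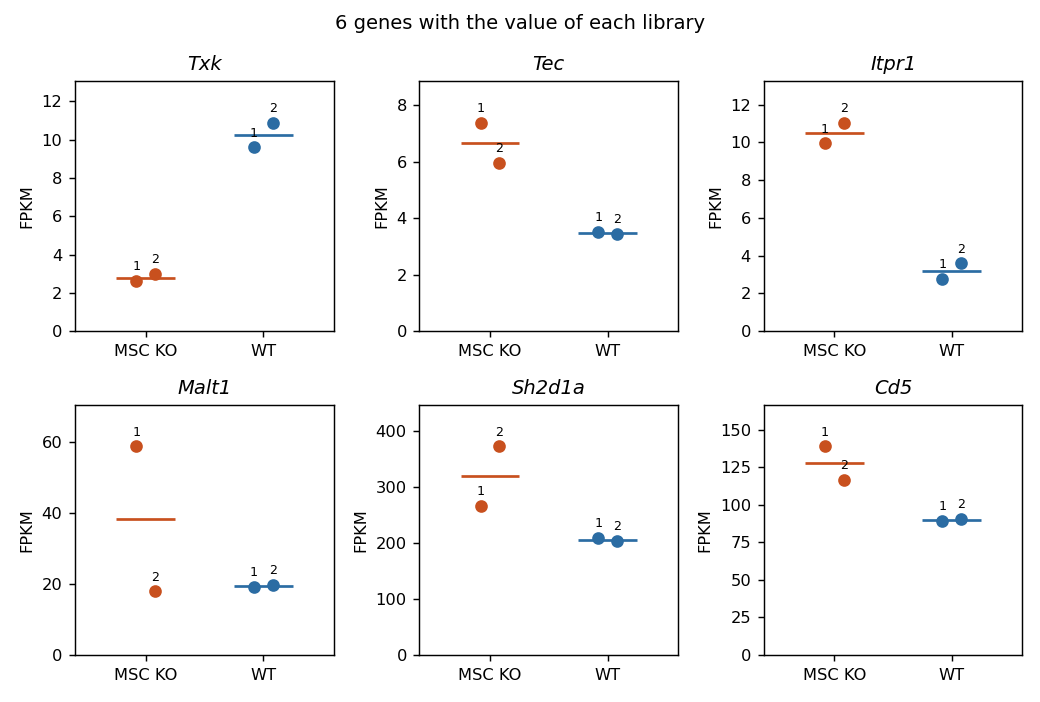
FPKM of 6 genes in each library, numbered by replicate, with MSC KO-labelled libraries left of WT-labelled ones and a line at each group's mean. Txk, Tec, Itpr1, Sh2d1a and Cd5 show no overlap between the groups, as did many of all tested genes. Malt1 lies between 17.9 and 19.7 FPKM in every library but MSC KO 1.

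Adaptors held genes on either side of WT. Lat, the membrane adaptor on which the signalling complex is built, had 390 and 263 FPKM under the MSC KO label, against 318 and 312 FPKM under the WT label. The 2 MSC KO-labelled libraries lay on opposite sides of WT, and the difference was 0.02 ± 0.17 on the log2(FPKM + 1) scale (SE; limma adjusted p = 0.949). Sh2d1a, which encodes SAP, the adaptor of the SLAM receptors, had 266 and 373 FPKM under the MSC KO label, against 209 and 204 FPKM under the WT label. Both values lay above WT, at 1.27 times within the first table and 1.83 times within the second, and the deposited table's q-value there was 0.375. The cytosolic adaptor SLP-76, encoded by Lcp2, had 84.4 and 77.3 FPKM under the MSC KO label, against 61.9 and 66.2 FPKM under the WT label, whereas Grap2, encoding its partner Gads, had 25.6 and 31.9 FPKM under the MSC KO label, against 37 and 40.5 FPKM under the WT label. These partners thus lay on opposite sides of WT, each without overlap.

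Sh2d2a, which encodes the Lck-binding adaptor TSAd, had 61.2 and 60.6 FPKM under the MSC KO label, against 44.1 and 46.2 FPKM under the WT label. Themis, an adaptor needed for thymocyte selection, had 29.7 and 29.1 FPKM under the MSC KO label, against 22.8 and 23.1 FPKM under the WT label. In these genes the replicates of each group were nearly equal and the groups were apart, by 0.42 and 0.35 on the log2(FPKM + 1) scale. Pag1, the membrane anchor of Csk, was the lowest gene of the group, at 1.65 and 2.47 FPKM under the MSC KO label, against 3.45 and 3.82 FPKM under the WT label. Its difference on the log2(FPKM + 1) scale was -0.75 within the first table and -0.47 within the second, so that it met the 1.5-fold rule in the first alone. The plain FPKM ratios to WT were 0.477 and 0.647, past 1.5-fold in both tables. At so low a level the added 1 FPKM makes the difference smaller.

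The related adaptors Sla and Sla2, which promote the removal of receptor chains from the surface, differed in pattern. Sla had 60.5 and 71.1 FPKM under the MSC KO label, against 47.6 and 49.3 FPKM under the WT label, with no overlap. Its locus is shared with Tg, thyroglobulin, inside which Sla lies, and Tg was at 23.8 and 24 FPKM under the MSC KO label, against 2.59 and 2.68 FPKM under the WT label. The labels do not say that strand was counted, so reads of the 2 genes may not have been told apart where they overlap. Its part in the Sla values was not tested. Sla2 had 28.2 and 23.4 FPKM under the MSC KO label, against 25.2 and 27.7 FPKM under the WT label. The MSC KO-labelled values enclosed both WT-labelled ones. Sla2 shares its locus with 1110008F13Rik. That gene was at 69 and 54.4 FPKM under the MSC KO label, against 57.2 and 62 FPKM under the WT label. The part of 1110008F13Rik in the Sla2 values was not tested either. In all, 4 of the 43 genes shared a listed locus with another gene in both tables (Sla, Sla2, Plcg1 and Dgka), and Cd247 did in the second.

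The phosphatases and their relatives stayed within 1.5-fold of WT in both tables. Ptpn6, which encodes the inhibitory phosphatase SHP-1, had 167 and 192 FPKM under the MSC KO label, against 210 and 214 FPKM under the WT label. The difference was -0.24 ± 0.10 on the log2(FPKM + 1) scale (SE; limma adjusted p = 0.299). It was -0.14 without MSC KO 1 and -0.34 without MSC KO 2. Ptprc, which encodes CD45, the phosphatase that releases Lck from its Csk-imposed lock, had 127 and 133 FPKM under the MSC KO label, against 121 and 128 FPKM under the WT label, and overlapped WT. Ptpn22, a partner of Csk, had 69.6 and 70 FPKM under the MSC KO label, against 58.2 and 61.8 FPKM under the WT label. Of the UBASH3 proteins, which restrain Zap70 signalling, Ubash3b had 12.3 and 16.1 FPKM under the MSC KO label, against 17 and 19.6 FPKM under the WT label, and Ubash3a 29.5 and 24.5 FPKM under the MSC KO label, against 25.9 and 27.1 FPKM under the WT label. Ubash3b lay below WT in both tables, while Ubash3a was above WT in the first table and below it in the second.

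Of the 6 genes at phospholipase C gamma, diacylglycerol and Ras, 4 were lower in both tables, as were 37.5% of all tested genes, counting Vav1, which was level with WT in the first. Rasa2 was higher in both, and none passed the adjusted threshold. Dgkz, a kinase that removes diacylglycerol, had 55.8 and 65.2 FPKM under the MSC KO label, against 81.9 and 89.1 FPKM under the WT label. The groups were well apart, by -0.49 ± 0.09 on the log2(FPKM + 1) scale (SE; limma adjusted p = 0.154). Its relative Dgka had 49.1 and 45.5 FPKM under the MSC KO label, against 55.3 and 57.4 FPKM under the WT label. Rasgrp1, the diacylglycerol-activated exchange factor that loads Ras, had 18.6 and 18.7 FPKM under the MSC KO label, against 24.6 and 26 FPKM under the WT label. Removers and user of diacylglycerol thus lay on the same side of WT. Rasa2, a GTPase-activating protein that switches Ras off, had 11.6 and 9.5 FPKM under the MSC KO label, against 7.95 and 8.08 FPKM under the WT label. Plcg1, the phospholipase itself, had 52 and 46.6 FPKM under the MSC KO label, against 44.6 and 47.2 FPKM under the WT label, and Vav1, an exchange factor for Rac, 28 and 25 FPKM under the MSC KO label, against 28 FPKM in each library labelled WT. For both, 1 of the 2 MSC KO-labelled values was within the WT range or next to it.

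Malt1 was the gene on which the 2 tables disagreed most. It encodes the paracaspase that works with Bcl10 in the activation of NF-kappaB. Malt1 measured 58.6 FPKM in MSC KO 1 but 17.9 FPKM in MSC KO 2, against 19 and 19.7 FPKM under the WT label. MSC KO 1 alone stood apart, at 3.08 times WT in the first table against 0.905 times in the second. The authors' deposited table called it significant in the first comparison (q = 0.0118) and not in the second (q = 0.999), and with both pairs the limma adjusted p was 0.461. Its partner Bcl10 had 28.3 and 28.1 FPKM under the MSC KO label, against 31.8 and 32.4 FPKM under the WT label, a difference of -0.18 ± 0.09 on the log2(FPKM + 1) scale (SE; limma adjusted p = 0.359). The Bcl10 values of MSC KO 1 and MSC KO 2 were nearly equal, both just below WT.

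In the calcium arm the largest difference was in Itpr1, an IP3 receptor that releases calcium from the endoplasmic reticulum (chromosome 6, mm9, 108163090 to 108501108). It had 9.95 and 11 FPKM under the MSC KO label, against 2.78 and 3.59 FPKM under the WT label. Both MSC KO-labelled values lay far above both WT-labelled ones, at 3.58 and 3.08 times WT within the tables. The difference was 1.46 ± 0.10 on the log2(FPKM + 1) scale (SE; limma adjusted p = 0.111). In the authors' deposited tables Itpr1 was called significant in both comparisons (q = 0.0474 and 0.03), as were 0.255% of all tested genes, and it was the single member of the group called in both. Over the 43 genes the deposited tables called 2 in the first comparison, where they called 0.633% of all tested genes, and 1 in the second, where they called 0.557%. That test sets 1 library against 1 and has no replicate error.

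Orai1, the pore of the store-operated calcium channel, had 50.1 and 47.4 FPKM under the MSC KO label, against 35.2 and 37.1 FPKM under the WT label. The groups did not overlap, and the difference was 0.42 ± 0.10 on the log2(FPKM + 1) scale (SE; limma adjusted p = 0.184). Stim1, the sensor that opens that pore when stores empty, had 15.9 and 15.5 FPKM under the MSC KO label, against 16.1 and 17.7 FPKM under the WT label, a little under WT. The NFAT factors, which calcium drives into the nucleus, differed by less than Itpr1 and Orai1. Nfatc1 had 19.4 and 18.6 FPKM under the MSC KO label, against 18.7 and 18.1 FPKM under the WT label, Nfatc2 11.8 and 11.7 FPKM under the MSC KO label, against 9.1 and 10.2 FPKM under the WT label, and Nfatc3 18.4 and 19.8 FPKM under the MSC KO label, against 20.7 and 23.6 FPKM under the WT label. Nfatc1 overlapped WT, Nfatc2 lay above it and Nfatc3 below it.

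A second list of 54 other genes of the same pathway was set beside the group, of which 51 had been tested. It too was chosen with earlier results of these data known. Its shares beside those of all tested genes are thus a description and not a test. Lime1 shared a row with another gene, and no row under the symbols Tespa1 and Hras entered. By limma 0 of the 51 passed an adjusted p of 0.05. At an unadjusted p under 0.05, 3 lay above WT (5.88%, against 9.21% of all tested genes) and 11 below (21.6%, against 11.2%). At least 1.5-fold in both tables, 1 was above WT (1.96%, against 3.26% of all tested genes) and 4 below (7.84%, against 2.46%). The median difference was -0.08 on the log2(FPKM + 1) scale. There were 12 of the 51 above WT in each table (23.5%, against 31.2% of all tested genes) and 24 below it in each (47.1%, against 37.5%).

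The 4 genes below WT included 2 relatives of Rasa2. Rasa3, a GTPase-activating protein, had 8.71 and 7.12 FPKM under the MSC KO label, against 15.6 and 15.4 FPKM under the WT label (-0.90 ± 0.11, log2(FPKM + 1) scale, SE; limma adjusted p = 0.13). Rasa1, the first of that protein class to be described, had 11.5 and 13.1 FPKM under the MSC KO label, against 21.6 and 22.3 FPKM under the WT label (-0.79 ± 0.09; limma adjusted p = 0.13). Both lay opposite to Rasa2. Ppp3ca, a catalytic subunit of the phosphatase calcineurin that activates NFAT, had 4.19 and 4.88 FPKM under the MSC KO label, against 8.01 and 8.75 FPKM under the WT label (-0.76 ± 0.10; limma adjusted p = 0.13). Vav3, a relative of Vav1, had 0.661 and 1.27 FPKM under the MSC KO label, against 2.22 and 2.79 FPKM under the WT label (-0.85 ± 0.16; limma adjusted p = 0.155). The gene above WT was Cblb, a ubiquitin ligase that restrains T cell activation, at 26.6 and 30.3 FPKM under the MSC KO label, against 17.1 and 17.7 FPKM under the WT label (0.68 ± 0.10; limma adjusted p = 0.14). These 5 were picked for a same direction in both pairs of libraries, so that agreement was set by the choice. None of them passed the threshold.

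**Figure D4:**
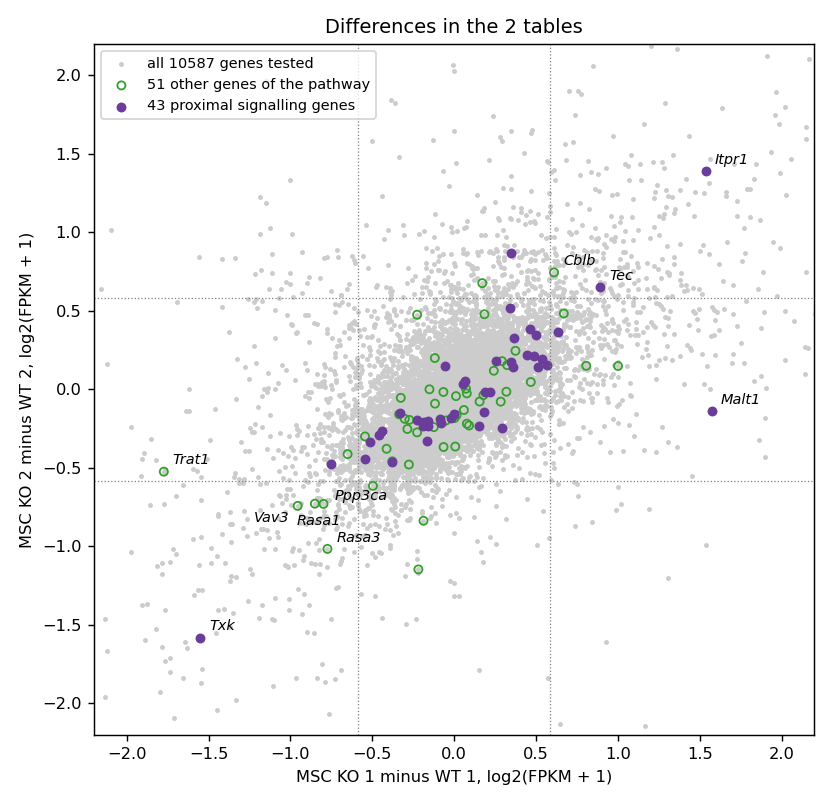
Difference of log2(FPKM + 1), MSC KO minus WT, in the first table (horizontal) and the second (vertical) for all 10587 tested genes (grey), 51 other genes of the pathway (open circles) and the 43 proximal signalling genes (filled), with dotted lines at 1.5-fold; 203 genes lie outside the plotted range of 2.2. Most filled points are in the central square, Itpr1 and Tec are in the upper right corner, Txk in the lower left, and Malt1 is far right of the centre, slightly below 0.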

How the data were processed

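The study deposited 2 gene-level tables from 4 mouse RNA-seq libraries. Reads were aligned to mm9 with TopHat, per the submitters' processing notes. The sources used here name neither the version nor the annotation or quantifier. The unit of the deposited values is not named, and they were read as FPKM from the layout of the tables. The deposited p-value and q-value are the authors' test of 1 library against 1. Whether the tables were scaled together is not stated.

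Rows with no gene symbol (1925 and 2325), which held 49.9% to 54.1% of the summed FPKM, and 24 date-like symbols per table were left out. A repeated symbol was taken from its row of highest mean, and symbols with a failed estimate (6) or with loci that did not overlap (3) were dropped. Starts were raised by 1 base, as the layout counts from 0. Values were taken as log2(FPKM + 1) for genes averaging 1 FPKM or more, which understates the change of low genes. The test of MSC KO against WT was that of limma (version 3.58.1, R 4.3.3), blocked by table, with a trended prior (2.35 prior and 1 residual degrees of freedom), a two-sided test and Benjamini-Hochberg adjustment over 10587 genes. The fit was tested on simulated data. Alternatives, 15 in all, changed the block, pseudocount, filter, scaling, prior, row choice, small RNA symbols or libraries. Python 3.11.15 and pandas 2.3.3 handled the tables. Depth was estimated from long genes with 1 transcript in GENCODE M21, matched by name. The members and lists were chosen with earlier results of these data known. All 43 are named. Described in full are those 1.5-fold apart in both tables and the highest of each role, and of the other pathway genes those 1.5-fold apart in both tables. A further gene of the pathway is not reported here.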

Additional observations from a re-analysis of the deposited data

How the results depend on the processing

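Counts of calls moved with most settings. Without the replicate block limma called 153 of all genes and 2 of the 43 (Txk, adjusted p = 0.0333, and Itpr1, 0.0434), against 1 and 0 with it. The replicate numbers do not by themselves show a pairing (r = 0.059 across genes between the replicate differences of MSC KO and of WT), and the block stands for the table. Genes called were 0 with a pseudocount of 5, with no filter, with quantile normalization and with a prior without trend. They were 3 with a filter at 5 FPKM, 7 with libraries rescaled to the same sum, and 26 with small RNA symbols left out, where 1 of the 43 was called (Txk, adjusted p = 0.0499). Leave-one-out fits had no block and took the lone library to vary like the other group. They called 0 to 2665 genes and 0 to 25 of the 43, with 12 of the 43 without MSC KO 1 (2286 genes, 21.6%) and 25 without MSC KO 2 (25.2%). At least 1.5-fold above WT stood 1 of the 43 (Itpr1) with a pseudocount of 5 and 2 to 4 in leave-one-out fits, and as far below 2 (Txk and Pag1) with a pseudocount of 0.1 and 1 to 2 in leave-one-out fits. The difference of Lat turned to -0.017 with libraries rescaled to the same sum, and ran from -0.26 (without MSC KO 1) to 0.31 (without MSC KO 2) in leave-one-out fits. The causes were not tested. Over all settings the adjusted p was 0.0131 to 0.441 for Txk, 0.0163 to 0.641 for Tec and 0.0235 to 0.516 for Itpr1. The median of the 43 was -0.11 without MSC KO 1 and 0.09 without MSC KO 2. With 2 libraries per group and 1 residual degree of freedom, a difference that misses the threshold is not shown to be absent.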
